A study of Mus musculus with 9 samples.

Results

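Growth hormone pattern-dependent hepatocyte genes are 7 genes, Hsd3b5, Elovl3, Susd4, Selenbp2, Cyp2d9, Nipal1 and Hao2, taken by symbol from a table of 22701 genes measured in 9 mouse livers. All 7 passed the filter on low values (a mean of at least 10 normalised reads over the 9 livers), which 13845 genes passed. The members were chosen by how their normalised reads differed between the genotypes in these same 9 livers, so the levels and differences of the 7 genes between genotypes are given as descriptions, with no test.

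In rodents, males release growth hormone in pulses with gaps between them and females release it more evenly, and the hepatocyte reads this pattern through the growth hormone receptor, the kinase JAK2 and the transcription factor STAT5B. The adult difference between the sexes is set up around puberty. Genes that depend on the pulses and gaps are male-biased in the liver, genes held down by them are female-biased, and the repressors BCL6 in males and CUX2 in females take part in this. Hsd3b5, Elovl3, Susd4, Selenbp2 and Cyp2d9 are counted here as male-biased genes, and Nipal1 and Hao2 as female-biased genes.

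RNA came from livers of mice aged 5 weeks, of a background labelled C57BL/6 and 129svPas. The groups were HP1ag_KO (3 livers; HP1a-/- mice with HP1γ deleted in the liver), HP1ab_KO (1 liver; HP1a-/- mice with HP1β deleted in the liver), HP1a_KO (2 livers; HP1a-/- mice) and WT (3 livers), so the HP1a-/- genotype is shared by all 3 mutant groups. HP1α, HP1β and HP1γ, encoded by Cbx5, Cbx1 and Cbx3, are proteins of silent chromatin that recognise methylated histones. The labels do not say which driver removed HP1β or HP1γ in the liver, and give an animal number but no sex or litter. The HP1ab_KO values come from a single liver, with no SD and no replicate check. All comparisons with WT use the same 3 WT livers.

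Libraries held 16266423 to 36161177 reads in genes. The targeted genes were below WT but present: Cbx5 averaged 743 ± 75.8 normalised reads in HP1ag_KO, 663 in HP1ab_KO and 538 ± 53.3 in HP1a_KO, against 1235 ± 279 in WT (SD). Cbx1 was at 217 in HP1ab_KO, against 917 ± 146 in WT, and Cbx3 averaged 350 ± 27.5 in HP1ag_KO, against 605 ± 59.7 in WT. The Y-linked Ddx3y lay at 3036 to 4549 in the 9 livers and the X-inactivation RNA Xist at 0.889 to 14.6. By these 2 genes all 9 livers read as male. limma called 0 of the 13845 genes tested in each comparison. Its genes at an unadjusted p under 0.05 numbered 1050 for HP1ag_KO against WT, 512 for HP1ab_KO, 1404 for HP1a_KO and 2240 for HP1ag_KO against HP1a_KO. edgeR also called 0 in each of the 4 comparisons, with 1087, 524, 1341 and 2193 genes at an unadjusted p under 0.05 in the same order. DESeq2 called 99 genes in HP1ag_KO against WT (0.715%), 11 in HP1ab_KO (0.0795%), 89 in HP1a_KO (0.643%) and 459 between HP1ag_KO and HP1a_KO (3.32%).

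RefSeq gave a window of 250 bases before the start for 6 of the 7 genes. The windows of Selenbp2, Nipal1 and Hao2 are shown because Selenbp2 varied most over the livers and the other two are the female-biased genes. They lie in GRCm38.p6 at chr3:94693323-94693572 (plus strand), chr5:72647546-72647795 (plus strand) and chr3:98893231-98893480 (minus strand), and are written 5′ to 3′ up to the base before the start, with capitals for a match of the TATA box letters.
Selenbp2: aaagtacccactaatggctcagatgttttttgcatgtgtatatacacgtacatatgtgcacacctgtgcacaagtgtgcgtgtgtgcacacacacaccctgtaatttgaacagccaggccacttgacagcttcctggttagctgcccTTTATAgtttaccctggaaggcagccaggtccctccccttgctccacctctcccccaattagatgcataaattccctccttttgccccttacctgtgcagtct
Nipal1: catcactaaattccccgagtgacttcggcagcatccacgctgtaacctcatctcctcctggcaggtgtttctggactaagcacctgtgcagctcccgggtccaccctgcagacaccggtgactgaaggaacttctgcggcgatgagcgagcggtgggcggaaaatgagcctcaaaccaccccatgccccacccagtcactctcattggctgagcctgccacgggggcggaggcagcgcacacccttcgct
Hao2: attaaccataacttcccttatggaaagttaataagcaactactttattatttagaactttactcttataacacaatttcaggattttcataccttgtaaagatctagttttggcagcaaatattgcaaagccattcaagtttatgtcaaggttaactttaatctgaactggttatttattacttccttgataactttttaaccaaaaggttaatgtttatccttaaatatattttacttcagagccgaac
The windows differ in base composition: 49.2% of the bases were G or C in Selenbp2, 61.2% in Nipal1 and 28.4% in Hao2, beside a median of 52.4% over all 32851 windows. Both strands of the member windows, 7 in all because Susd4 has a pair, were searched for TTCNNNGAA (the letters bound by STAT5 and BCL6), ATTGAT (HNF6 and CUX2), TGTTTAC (FOXA) and TATAAA (the TATA box). TTCNNNGAA is found in 7.02% of all windows of this length, ATTGAT in 6.72%, TGTTTAC in 3.17% and TATAAA in 12.4%. The first 3 motifs had no match in any of the 7 windows, which says only that these letters are not there. TATAAA matched on the minus strand in Selenbp2, at 103 to 98 bases before the start, and in Cyp2d9, at 28 to 23 bases before it. The RefSeq and GENCODE starts differ most for Hsd3b5, Susd4 and Cyp2d9. The Hsd3b5 window lies outside the GENCODE gene and away from its start, and the windows of Susd4 and Cyp2d9 lie inside the gene bodies. For Hsd3b5, Susd4 and Cyp2d9 the search does not cover the sequence next to the GENCODE start. The windows of Selenbp2, Nipal1 and Hao2 reach the GENCODE start and end just inside the gene.

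Levels can be set beside each other between genes only per length. In WT, Selenbp2 had the highest mean per kb of exon at 14001 normalised reads per kb, followed by Cyp2d9 at 11200, Hsd3b5 at 7031 and Elovl3 at 3835. Susd4 at 86.7, Nipal1 at 30.2 and Hao2 at 9.48 normalised reads per kb were far lower. The genes also differed in how much they varied over the 9 livers. The highest liver was 58.0 times the lowest for Selenbp2, 48.0 times for Elovl3, 40.9 times for Hao2, 27.9 times for Susd4, 11.7 times for Nipal1, 6.09 times for Hsd3b5 and 1.56 times for Cyp2d9.

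**Figure D1:**
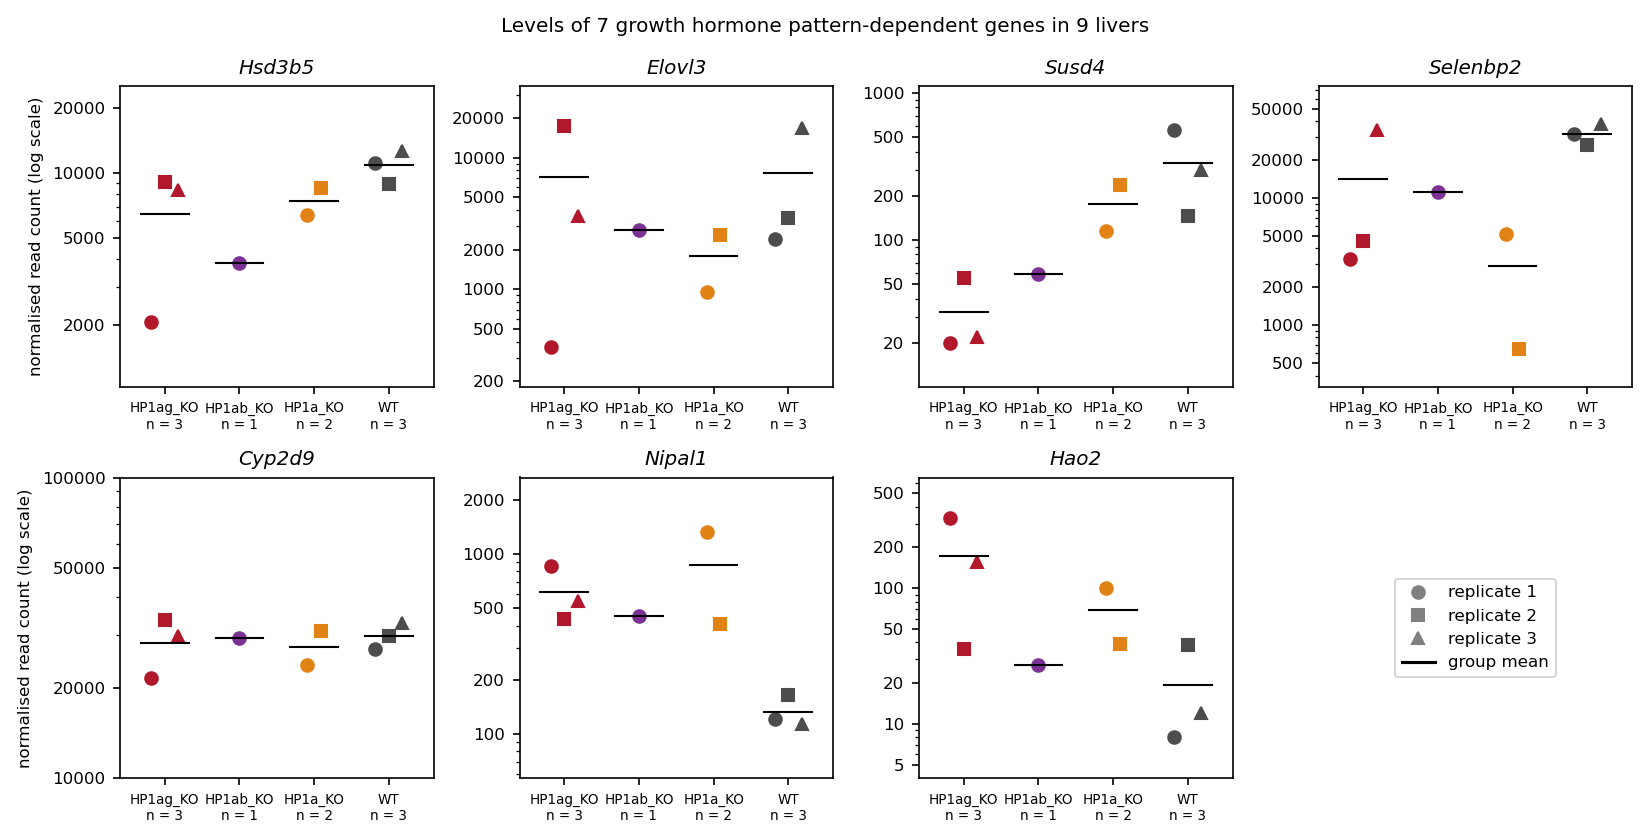
Normalised read counts (log scale) of the 7 genes in each of the 9 livers, by genotype; each symbol is 1 liver, its shape the replicate number, and the bar the group mean. Nipal1 lies above WT in all 6 mutant livers, Susd4 is lowest in the 3 HP1ag_KO livers, and Cyp2d9 spans only 1.56-fold.

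Hsd3b5 (ENSMUSG00000038092, chr3:98618634-98630252 in GRCm38, minus strand) encodes a ketosteroid reductase of the male mouse liver. It had 2069.7, 9080.3 and 8382 normalised reads in the HP1ag_KO livers, 3863 in the HP1ab_KO liver, 6416 and 8537 in the HP1a_KO livers, and 11122, 8947 and 12604 in the WT livers. Both HP1a_KO livers and the HP1ab_KO liver lay below every WT liver, while HP1ag_KO replicate 2 lay inside the WT range. In bulk liver, fewer cells of a type and less RNA per cell cannot be told apart. The means were 6511 ± 3862 in HP1ag_KO, 7477 ± 1500.0 in HP1a_KO and 10891 ± 1839 in WT (SD). On the log2 scale the difference from WT was -0.998 ± 0.51 (SE) in HP1ag_KO, -1.48 ± 0.72 in HP1ab_KO and -0.54 ± 0.57 in HP1a_KO. Without HP1ag_KO replicate 1, the liver with the lowest level, the HP1ag_KO difference was -0.31.

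Elovl3 (ENSMUSG00000038754, chr19:46131897-46135694, plus strand) encodes an elongase of very long chain fatty acids. It had 364, 17453 and 3619.5 normalised reads in the HP1ag_KO livers, 2801 in the HP1ab_KO liver, 956 and 2596 in the HP1a_KO livers, and 2404, 3452 and 16866 in the WT livers. One HP1ag_KO liver and 1 WT liver stood at almost the same high level, and no mutant group was clear of the WT range. Its log2 difference from WT was -0.87 ± 1.32 in HP1ag_KO, -0.89 ± 1.87 in HP1ab_KO and -1.72 ± 1.48 in HP1a_KO, with an SE above the difference in the first 2. Leaving out HP1ag_KO replicate 1 turned the HP1ag_KO difference to 0.61.

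Elovl3 is also known as a gene of the circadian cycle in mouse liver, so it was set beside clock genes, a list added after its values were seen. The activator gene Arntl had 247, 916 and 80.4 normalised reads in the HP1ag_KO livers, 118 in the HP1ab_KO liver, 86.2 and 89.5 in the HP1a_KO livers, and 26.7, 67.6 and 848 in the WT livers. The output gene Dbp had 334, 50.5 and 2818 in the HP1ag_KO livers, 2384 in the HP1ab_KO liver, 1961 and 2004 in the HP1a_KO livers, and 2755, 3036 and 68.4 in the WT livers. HP1ag_KO replicate 2 and WT replicate 3 were the high livers of both Elovl3 and Arntl and the low livers of Dbp. The repressor gene Per3 was also low there, at 105 in HP1ag_KO replicate 2 and 66.5 in WT replicate 3, against 279.8 to 1864 in the other livers. Of the 12 clock genes, 6 lay higher and 6 lower in HP1ag_KO against WT, with a median log2 difference of -0.02, and limma called none. No time of day is given in the sources used here. With the Arntl level as a covariate, a choice made after the data were seen, the Elovl3 difference from WT was -1.60 in HP1ag_KO.

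**Figure D2:**
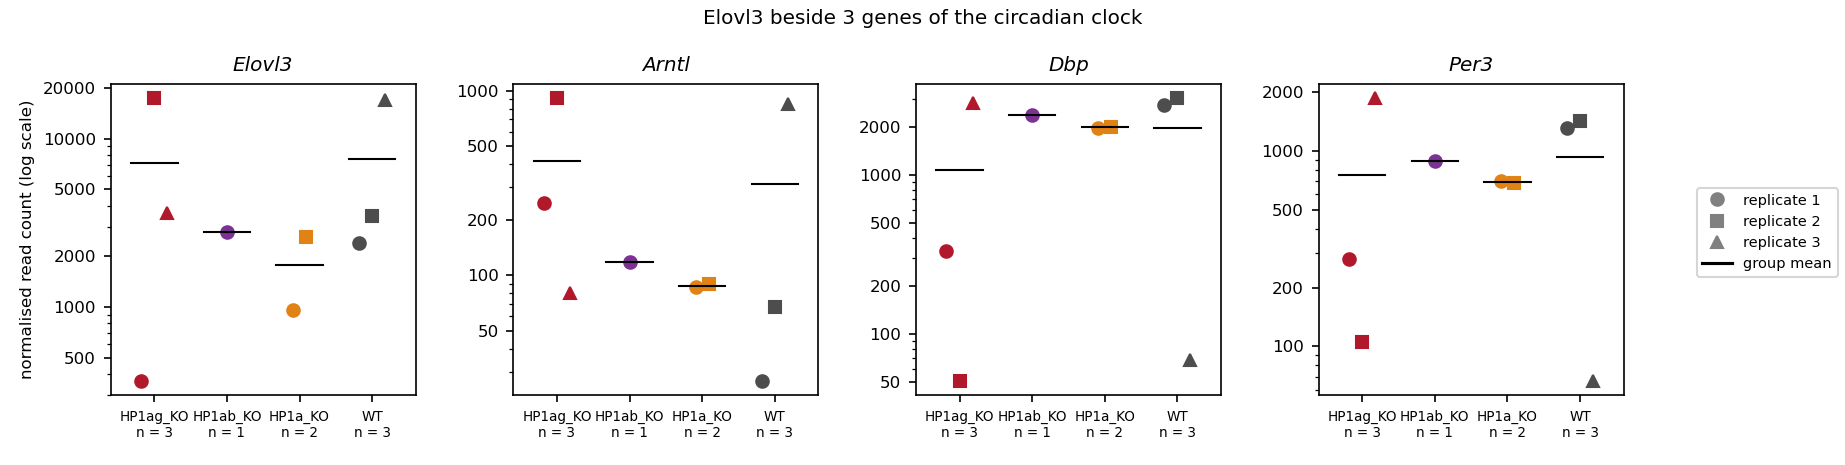
Normalised read counts (log scale) of Elovl3 and the clock genes Arntl, Dbp and Per3 in each liver, by genotype; symbols are livers, shapes replicate numbers and bars group means. HP1ag_KO replicate 2 and WT replicate 3 are the 2 highest for Elovl3 and Arntl and the 2 lowest for Dbp and Per3.

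These 2 livers, which stood together for the clock genes, were also the 2 highest for Cyp2d9. Cyp2d9 was at 33593 in HP1ag_KO replicate 2 and at 32749 in WT replicate 3. The 2 livers differed more in Susd4, Selenbp2 and Nipal1. Susd4 was at 55.0 in HP1ag_KO replicate 2 and at 299 in WT replicate 3. Selenbp2 was at 4606 in HP1ag_KO replicate 2 and at 37856 in WT replicate 3. Nipal1 was at 435 in HP1ag_KO replicate 2 and at 113 in WT replicate 3.

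Susd4 (ENSMUSG00000038576, chr1:182763860-182896591, plus strand) encodes a membrane protein with sushi domains that restrains complement. It had 20.05, 55.0 and 21.8 normalised reads in the HP1ag_KO livers, 59.1 in the HP1ab_KO liver, 116 and 238 in the HP1a_KO livers, and 559, 146 and 299 in the WT livers. All 3 HP1ag_KO livers lay below every HP1a_KO and every WT liver, and the HP1ab_KO liver lay just above the highest HP1ag_KO liver. HP1a_KO overlapped WT. The means were 32.3 ± 19.7 in HP1ag_KO, 177 ± 86.8 in HP1a_KO and 335 ± 209 in WT. The log2 difference was -3.28 ± 0.56 for HP1ag_KO minus WT, -2.27 ± 0.79 for HP1ab_KO minus WT, -0.80 ± 0.63 for HP1a_KO minus WT and -2.48 ± 0.63 for HP1ag_KO minus HP1a_KO. Without HP1ag_KO replicate 1 the difference from WT was -3.03.

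Selenbp2 (ENSMUSG00000068877, chr3:94693556-94704413, plus strand) encodes a cytosolic selenium-binding protein. It had 3285, 4606 and 34345 normalised reads in the HP1ag_KO livers, 11091 in the HP1ab_KO liver, 5174 and 653 in the HP1a_KO livers, and 31600.4, 25929 and 37856 in the WT livers. All mutant livers but HP1ag_KO replicate 3 lay below every WT liver, and that one lay inside the WT range. The means were 14079 ± 17563 in HP1ag_KO, 2913 ± 3197 in HP1a_KO and 31795 ± 5966 in WT, so the spread within each of these mutant groups exceeded its mean. Relative to WT, the log2 difference was -1.97 ± 0.97 in HP1ag_KO, -1.50 ± 1.37 in HP1ab_KO and -4.09 ± 1.08 in HP1a_KO. HP1ag_KO minus HP1a_KO was 2.13 ± 1.08. With HP1ag_KO replicate 1 left out, HP1ag_KO minus WT was -1.32.

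Cyp2d9 (ENSMUSG00000068086, chr15:82433437-82456845, plus strand) encodes a steroid hydroxylase that is a standard marker of the male mouse liver. It had 21521, 33593 and 29721 normalised reads in the HP1ag_KO livers, 29252 in the HP1ab_KO liver, 23769 and 30901 in the HP1a_KO livers, and 26902, 29656 and 32749 in the WT livers. Every mutant group overlapped WT. The log2 difference from WT was -0.09 ± 0.19 in HP1ag_KO, -0.02 ± 0.27 in HP1ab_KO and -0.13 ± 0.21 in HP1a_KO, each smaller than its SE. Near-identical copies of Cyp2d9 exist, and reads may be split between them, so its level is uncertain.

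Nipal1 (ENSMUSG00000067219, chr5:72647795-72671078, plus strand) encodes a magnesium transporter. It had 854, 435 and 545 normalised reads in the HP1ag_KO livers, 451 in the HP1ab_KO liver, 1330.2 and 409 in the HP1a_KO livers, and 121, 164 and 113 in the WT livers. It was above every WT liver in all 6 mutant livers, and the mutant groups overlapped each other. The means were 611 ± 217 in HP1ag_KO, 869 ± 652 in HP1a_KO and 133 ± 27.2 in WT. The log2 difference from WT was 2.16 ± 0.42 in HP1ag_KO, 1.78 ± 0.60 in HP1ab_KO and 2.48 ± 0.47 in HP1a_KO. It was 1.89 in HP1ag_KO without replicate 1 of that group and 1.63 in HP1a_KO without replicate 1 of that group.

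Hao2 (ENSMUSG00000027870, chr3:98874521-98893239, minus strand) encodes a peroxisomal hydroxy acid oxidase. It had 327, 35.9 and 155 normalised reads in the HP1ag_KO livers, 27.2 in the HP1ab_KO liver, 101 and 38.7 in the HP1a_KO livers, and 8.005, 38.1 and 12.2 in the WT livers. HP1ag_KO overlapped WT through 1 liver of each group, the lower HP1a_KO liver lay just above the highest WT liver, and the HP1ab_KO liver lay inside the WT range. The means were 173 ± 146 in HP1ag_KO, 69.8 ± 44.0 in HP1a_KO and 19.4 ± 16.3 in WT. Its log2 difference from WT was 2.89 ± 0.85 in HP1ag_KO, 0.76 ± 1.20 in HP1ab_KO and 1.93 ± 0.95 in HP1a_KO. Without HP1ag_KO replicate 1 it was 2.19 in HP1ag_KO.

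Counted over the 7 genes, the groups of HP1ag_KO and WT did not overlap for Nipal1 (higher; 6.46% of the genes tested) and Susd4 (lower; 7.05%). For HP1a_KO and WT this held for Nipal1 and Hao2 (higher; 14.7%) and for Hsd3b5 and Selenbp2 (lower; 15.1%). The single HP1ab_KO liver lay above all WT livers for Nipal1 (22.6%) and below them for Hsd3b5, Susd4 and Selenbp2 (24.8%). Between HP1ag_KO and HP1a_KO the groups were apart for Susd4 (lower; 19.2%) and for no member in the other direction (higher; 17.5%). Because the genes were chosen with these contrasts known, nothing is read from the counts against those shares.

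A list of 22 other male-biased genes, made with earlier results of these data known, held 21 genes that passed the filter. In HP1ag_KO against WT, 19 lay lower and 2 higher, with a median log2 difference of -0.83 beside -0.01 over all genes tested. In HP1ab_KO 16 lay lower and 5 higher (median -0.38 beside -0.00), and in HP1a_KO 15 lay lower and 6 higher (median -0.52 beside -0.00). The HP1ag_KO median was -0.55 under edgeR, with 20 lower, the HP1ab_KO median -0.68 under DESeq2 without WT replicate 2, and the HP1a_KO median -0.32 without HP1a_KO replicate 1. limma called none of the 21 in any comparison. DESeq2 called Cspg5, a proteoglycan core protein, lower in HP1ag_KO (adjusted p = 0.0414; 0.325% of all genes tested were called lower). Cspg5 averaged 28.1 ± 20.7 normalised reads in HP1ag_KO and 91.5 ± 16.5 in WT. The Cspg5 call was lost without any 1 of the WT livers and without HP1ag_KO replicate 1 or 2. The DESeq2 call count on this list was 0 without any 1 of the WT livers and 1 without any 1 of the HP1ag_KO livers. Without HP1ag_KO replicate 1 or 2, that call was another gene of the list.

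Mup21, a major urinary protein gene, had 2512, 25894 and 18132 normalised reads in the HP1ag_KO livers, against 2201, 2006 and 372 in the WT livers, a log2 difference of 3.16 ± 0.96 (limma adjusted p = 0.569). DESeq2 called Mup21 higher in HP1ag_KO than in HP1a_KO, as it did the female-biased Hamp2, a hepcidin gene (1.7% of all genes tested). Both calls were lost without either HP1a_KO liver and without HP1ag_KO replicate 2, the Mup21 call also without HP1ag_KO replicate 3, and the Hamp2 call also without HP1ag_KO replicate 1. Mup7, a relative of Mup21, averaged 20058 ± 27270.0 in HP1ag_KO and 85319.8 ± 50141 in WT, a difference of -3.71 ± 1.56 (limma adjusted p = 0.648). Reads of the Mup copies, which are nearly identical, may be split between genes. Cyp4a12b, a fatty acid hydroxylase of male liver, averaged 168 ± 152 in HP1ag_KO and 875 ± 596 in WT, with a difference of -2.83 ± 0.98 (limma adjusted p = 0.59). Cyp2u1, also a fatty acid hydroxylase, averaged 1193 ± 477 in HP1ag_KO and 2009 ± 456 in WT (difference -0.83 ± 0.36, limma adjusted p = 0.656). For Cyp2u1 every HP1ag_KO liver lay below every WT liver, as held for 7.05% of all genes tested. Egfr, the receptor for epidermal growth factor, averaged 58369.6 ± 11795 in HP1a_KO and 39238 ± 7595 in WT (0.58 ± 0.23, limma adjusted p = 0.471).

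Of 32 other female-biased genes, chosen in the same way, 26 passed the filter. The filter took the mean over all 9 livers, so a gene near 0 in WT could pass through high mutant livers alone. Such genes can only lie higher in mutants, so the counts and medians of this list lean that way and are descriptions. In HP1ag_KO against WT, 22 lay higher and 4 lower, with a median log2 difference of 1.30 beside -0.01 over all genes tested. In HP1ab_KO 20 lay higher and 6 lower (median 0.39 beside -0.00), and in HP1a_KO 21 lay higher and 5 lower (median 0.83 beside -0.00). The HP1ab_KO median was 0.20, with 17 higher and 9 lower, without WT replicate 1, it was 0.23 under edgeR and 0.21 under DESeq2, and with DESeq2 and WT replicate 1 left out it was 0.03, with 13 higher and 13 lower. The HP1a_KO median was 0.43 under DESeq2 without HP1a_KO replicate 1. limma called none of the 26 in any comparison. DESeq2 called 4 higher in HP1ag_KO (0.39% of all genes tested): Cyp2b9, a drug-metabolising cytochrome, Slc22a26 and Slc22a27, organic anion transporters, and Prlr, the prolactin receptor. It called Prlr higher in HP1a_KO too (0.441%; 0.202% of all genes were called lower there), and in HP1ab_KO no gene of either sex-biased list (0.0361% higher and 0.0433% lower). Leaving out HP1ag_KO replicates 1, 2 and 3 in turn made the 4 calls in HP1ag_KO 1, 11 and 8, and leaving out WT replicates 1, 2 and 3 made them 0, 6 and 2. The Prlr call in HP1a_KO was lost without either HP1a_KO liver and without WT replicate 2. The Prlr call in HP1ag_KO was lost without HP1ag_KO replicate 1 or 2 and without WT replicate 1 or 2.

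Prlr had 4807, 4715 and 3426 normalised reads in the HP1ag_KO livers, 3128 in the HP1ab_KO liver, 4909.7 and 5321 in the HP1a_KO livers, and 2368, 2363 and 3286 in the WT livers, so both replicated mutant groups lay above WT. Of all genes tested, 6.46% lay above WT without overlap in HP1ag_KO and 14.7% in HP1a_KO. The log2 difference from WT was 0.69 ± 0.17 in HP1ag_KO (DESeq2 adjusted p = 0.0446, limma 0.474) and 0.95 ± 0.19 in HP1a_KO (DESeq2 adjusted p = 0.00807, limma 0.397). Cyp2b9 had 6684, 339.8 and 808 in the HP1ag_KO livers and 10.7, 134 and 101 in the WT livers, a difference of 4.49 ± 1.19 (DESeq2 adjusted p = 0.0154, limma 0.526). Slc22a27 averaged 414 ± 517 in HP1ag_KO and 20.9 ± 14.4 in WT (3.59 ± 0.88, DESeq2 adjusted p = 0.0105, limma 0.447). Slc22a26 averaged 998.5 ± 1489.7 in HP1ag_KO and 37.9 ± 26.0 in WT (3.43 ± 1.14, DESeq2 adjusted p = 0.0299, limma 0.584). Cyp2a4, a steroid hydroxylase, averaged 3348 ± 2884 in HP1ag_KO and 242 ± 301 in WT (4.13 ± 0.999, limma adjusted p = 0.447). Cyp39a1, an oxysterol hydroxylase, averaged 1912 ± 397 in HP1a_KO and 1086 ± 391 in WT (0.86 ± 0.29, limma adjusted p = 0.457). Copies of Cyp2a, Cyp2b and Slc22a genes may share reads, and these levels are uncertain.

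HP1ag_KO replicate 1 stood apart on both lists. The median of the male-biased list, as log2 level minus the WT mean, was -2.001 in this liver, against -0.08 in replicate 2 and -0.23 in replicate 3, and that of the female-biased list was 2.40, against 0.29 and 0.97. The other mutant livers lay at -0.38 (HP1ab_KO), -0.53 and -0.32 (HP1a_KO) on the male-biased list and at 0.39, 1.12 and 0.60 on the female-biased list. Among WT livers, replicate 2 was at 0.78 on the female-biased list, above 3 of the 6 mutant livers, while replicates 1 and 3 were at -0.32 and -0.23. Without HP1ag_KO replicate 1, the median difference of HP1ag_KO from WT was -0.19 on the male-biased list, with 16 of 21 lower, and 0.61 on the female-biased list, with 19 of 26 higher. In this liver Cyp2b13, a female-specific cytochrome, had 3277 normalised reads, against 5.61 and 28.4 in the other HP1ag_KO livers and 0.889, 4.76 and 0 in the WT livers. A1bg, a female-biased secreted protein gene, had 2317 there, against 52.7 and 59.6 in the other HP1ag_KO livers and 0.889, 14.3 and 20.6 in the WT livers.

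**Figure D3:**
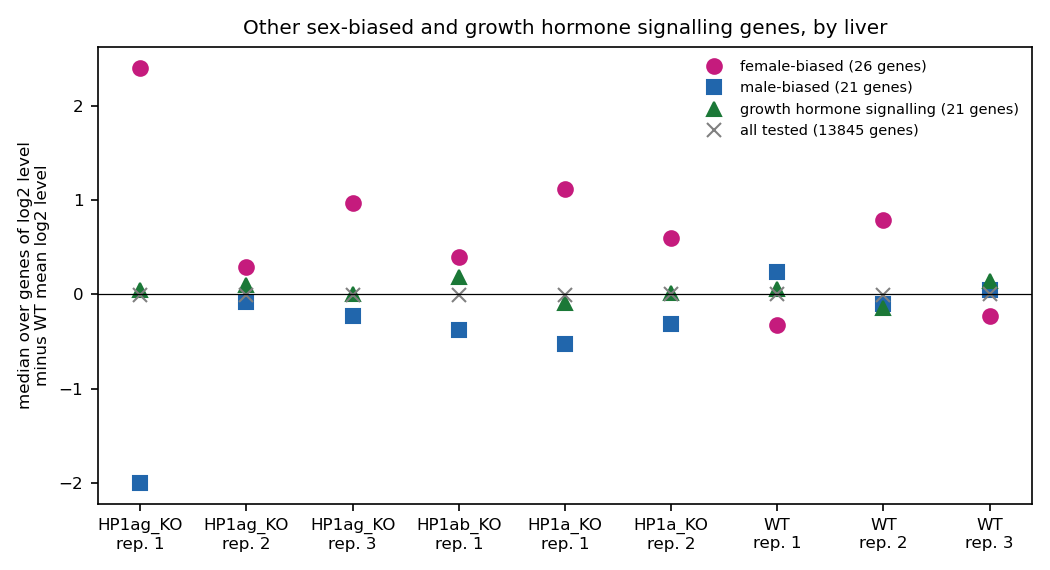
Median, over the genes of each list, of the log2 level minus the WT mean log2 level, for each liver; circles are 26 female-biased genes, squares 21 male-biased genes, triangles 21 growth hormone signalling genes and crosses all 13845 genes tested. HP1ag_KO replicate 1 lies at 2.40 and -2.001 on the sex-biased lists, while the signalling list stays between -0.15 and 0.18 in every liver.

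The genes of growth hormone signalling gave medians near 0. Of 22 listed, 21 passed the filter, and 11 lay higher and 10 lower in HP1ag_KO (median 0.03), 13 higher and 8 lower in HP1ab_KO (median 0.18) and 11 higher and 10 lower in HP1a_KO (median 0.01). Ghr, the growth hormone receptor, had 11882, 20532 and 18373 normalised reads in the HP1ag_KO livers, 15818 in the HP1ab_KO liver, 15636 and 20314 in the HP1a_KO livers, and 20620.5, 18538 and 20228 in the WT livers. Its log2 difference from WT was -0.26 ± 0.21 in HP1ag_KO (limma adjusted p = 0.791). Stat5b averaged 2575 ± 717 in HP1ag_KO and 2091 ± 780.3 in WT (0.32 ± 0.28, limma adjusted p = 0.815). Igf1, the growth factor made in response to the hormone, averaged 22111 ± 5041 in HP1ag_KO, 22404 ± 4611 in HP1a_KO and 21261 ± 1935 in WT. Socs2 and Cish, feedback inhibitors induced by STAT5, spread widely within groups: Socs2 was at 1797, 722 and 567 in HP1ag_KO and 470.5, 290.5 and 1739 in WT, and Cish at 162, 468 and 609 in HP1ag_KO and 458, 145 and 1209.85 in WT. Igfbp3, an insulin-like growth factor binding protein, differed from WT by 0.55 ± 0.25 in HP1ag_KO (limma adjusted p = 0.661) and Esr1, an oestrogen receptor, by 0.40 ± 0.18 (0.665). The phosphatase gene Ptpn11 differed by -0.16 ± 0.098 (0.733) in HP1ag_KO, and the liver transcription factor gene Foxa2 by -0.76 ± 0.48 (0.601) in HP1a_KO.

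The repressor gene Bcl6 averaged 407 ± 194 in HP1ag_KO, 997 ± 682 in HP1a_KO and 566 ± 336 in WT. Cux2 had 294, 22.4 and 39.7 normalised reads in the HP1ag_KO livers, 20.8 in the HP1ab_KO liver, 42.2 and 18.9 in the HP1a_KO livers, and 16.0, 34.3 and 13.1 in the WT livers, so its high value was in HP1ag_KO replicate 1, the liver with the lowest male-biased median. Onecut1, which encodes HNF6, averaged 435 ± 128 in HP1ag_KO and 856 ± 647 in WT (-0.55 ± 0.83). Hnf4a, a master regulator of hepatocytes, was called higher by DESeq2 in HP1a_KO, at 21510.3 ± 1699.5 against 16262 ± 263 in WT (0.40 ± 0.11, adjusted p = 0.0383, limma 0.426), a call that was lost without any 1 liver of either group.

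Relatives that passed the filter numbered 3 for Hsd3b5, 5 for Elovl3, 3 for Susd4, 1 for Selenbp2, 6 for Cyp2d9, 3 for Nipal1 and 1 for Hao2. Among them, HP1ag_KO and WT overlapped for all but Elovl5 (higher, 6.46% of all genes tested) and Hsd3b3, Cyp2d40 and Nipa2 (lower, 7.05%), and limma called none. HP1a_KO and WT did not overlap for Susd2, Susd6 and Nipa1 (higher, 14.7%) and for Hsd3b3, Cyp2d10, Cyp2d22 and Hao1 (lower, 15.1%). Selenbp1, a close relative of Selenbp2, averaged 6875 ± 1756 normalised reads in HP1ag_KO, 5438 ± 249.5 in HP1a_KO and 5845 ± 243 in WT. Hao1, the liver glycolate oxidase gene, averaged 9926 ± 3407 in HP1ag_KO, 10777 ± 584 in HP1a_KO and 12266 ± 421 in WT. Cyp2d10 averaged 14274.5 ± 2542 in HP1ag_KO, 14189.7 ± 83.2 in HP1a_KO and 16136 ± 138 in WT. Elovl5, an elongase of polyunsaturated fatty acids, averaged 19155 ± 1265 in HP1ag_KO and 11583 ± 4767 in WT (0.82 ± 0.28, limma adjusted p = 0.59). Cyp2d40 averaged 1353 ± 270.4 in HP1ag_KO and 2198 ± 510.2 in WT (-0.69 ± 0.19, limma adjusted p = 0.556). DESeq2 called Cyp2d40 lower in HP1ag_KO than in HP1a_KO, where it averaged 2546 ± 42.8 (adjusted p = 0.00992; 1.61% of all genes tested were called lower), a call that was lost without either HP1a_KO liver and without HP1ag_KO replicate 2. Nipa2, a magnesium transporter related to Nipal1, differed by -0.22 in HP1ag_KO. Hsd3b4, Hsd3b6 and Cyp2d13 were not analysed here.

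**Figure D4:**
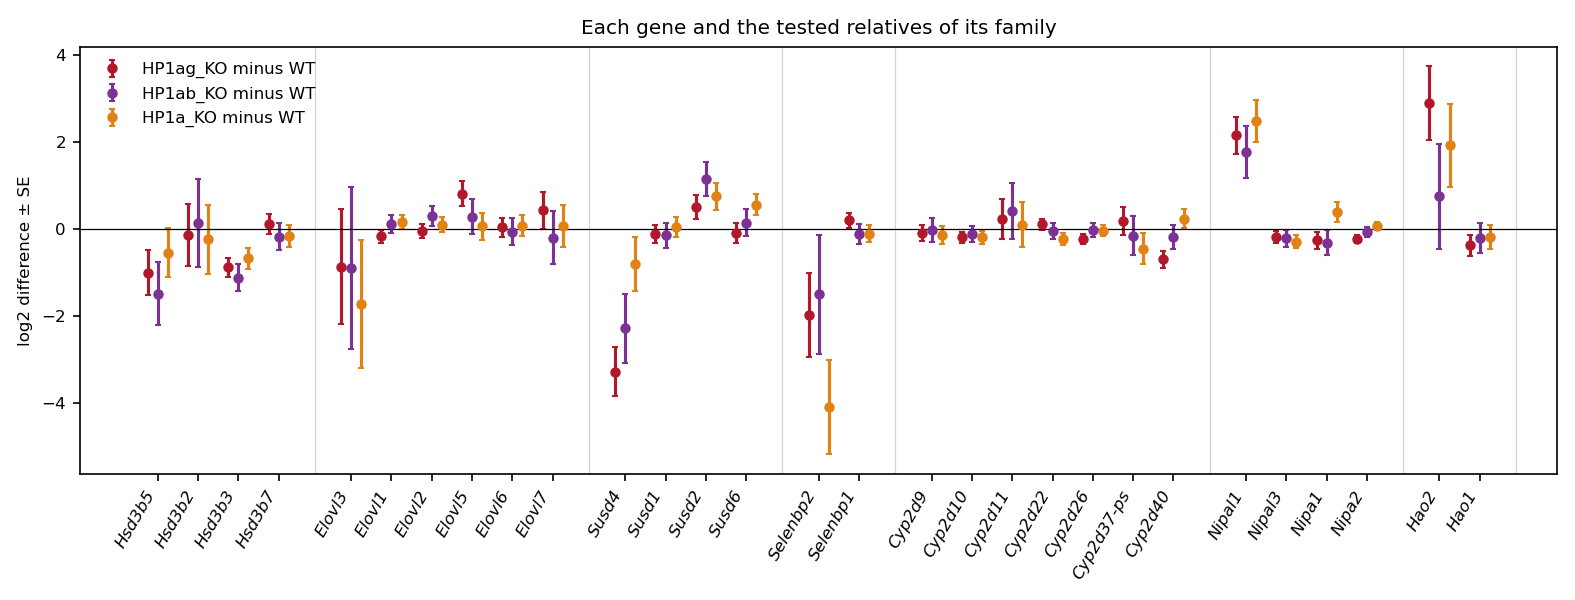
Log2 difference from WT (± SE, log2 of normalised reads + 1) for each of the 7 genes and the tested relatives of its family, for HP1ag_KO, HP1ab_KO and HP1a_KO. Susd4 (-3.28 in HP1ag_KO), Selenbp2 (-4.09 in HP1a_KO) and Nipal1 (2.48 in HP1a_KO) lie far from relatives such as Selenbp1, which is at 0.20 in HP1ag_KO and -0.10 in HP1a_KO.

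Hsd3b5 and Hao2, a male-biased and a female-biased gene, lie on chromosome 3 with 244 kb between them, and Hsd3b2 and Hsd3b3 lie in that stretch. Hsd3b3, a steroid dehydrogenase, had 2168, 1798 and 3428 normalised reads in the HP1ag_KO livers, 2011 in the HP1ab_KO liver, 2669.5 and 2835 in the HP1a_KO livers, and 3913, 4454 and 4770.1 in the WT livers. It was below WT in all 6 mutant livers, with log2 differences of -0.88 ± 0.22 in HP1ag_KO (limma adjusted p = 0.447) and -0.67 ± 0.24 in HP1a_KO (limma adjusted p = 0.457). Groups lay apart in this direction for 7.05% of all genes tested in HP1ag_KO, 24.8% in HP1ab_KO and 15.1% in HP1a_KO. Hsd3b2 differed by -0.14 ± 0.71 in HP1ag_KO. Along this stretch Hsd3b5 and Hsd3b3 lay lower and Hao2 higher, and reads of the Hsd3b copies may be split between them. Zfp697 on the other strand is annotated across the body of Hsd3b5 and had 28.3 to 48.2 normalised reads in HP1ag_KO and 30.9 to 51.6 in WT.

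Within 250 kb of Susd4, 4 genes passed the filter. Capn8, a calpain protease gene 132 kb away, had 7.29, 13.5 and 15.1 normalised reads in the HP1ag_KO livers, 13.6 in the HP1ab_KO liver, 9.17 and 18.9 in the HP1a_KO livers, and 181, 19.999 and 24.3 in the WT livers. Every mutant liver was below every WT liver, and WT replicate 1, which also had the highest Susd4, stood far above the others. The gap was narrow, from 18.9 in HP1a_KO replicate 2 to 19.999 in WT replicate 2. A gap in this direction was found in 7.05% of all genes tested for HP1ag_KO, 24.8% for HP1ab_KO and 15.1% for HP1a_KO. The log2 difference of Capn8 was -1.88 ± 0.79 in HP1ag_KO (limma adjusted p = 0.648). Tlr5, the flagellin receptor gene 58.2 kb away, averaged 101 ± 22.7 in HP1ag_KO, 161 ± 22.8 in HP1a_KO and 163 ± 30.8 in WT, a difference of -0.69 ± 0.22 in HP1ag_KO (limma adjusted p = 0.584). Next to Selenbp2, DESeq2 called the tight junction gene Cgn, 55.7 kb away, lower in HP1a_KO (-0.78, adjusted p = 0.0220; 0.202% of all genes tested), and limma did not. The call was lost without either HP1a_KO liver and without WT replicate 2 or 3. DESeq2 also called Cgn higher in HP1ag_KO than in HP1a_KO (0.89, adjusted p = 0.00155), where 1.7% of all genes tested were called higher. This second call held without any 1 of the HP1ag_KO livers and was lost without either HP1a_KO liver.

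**Figure D5:**
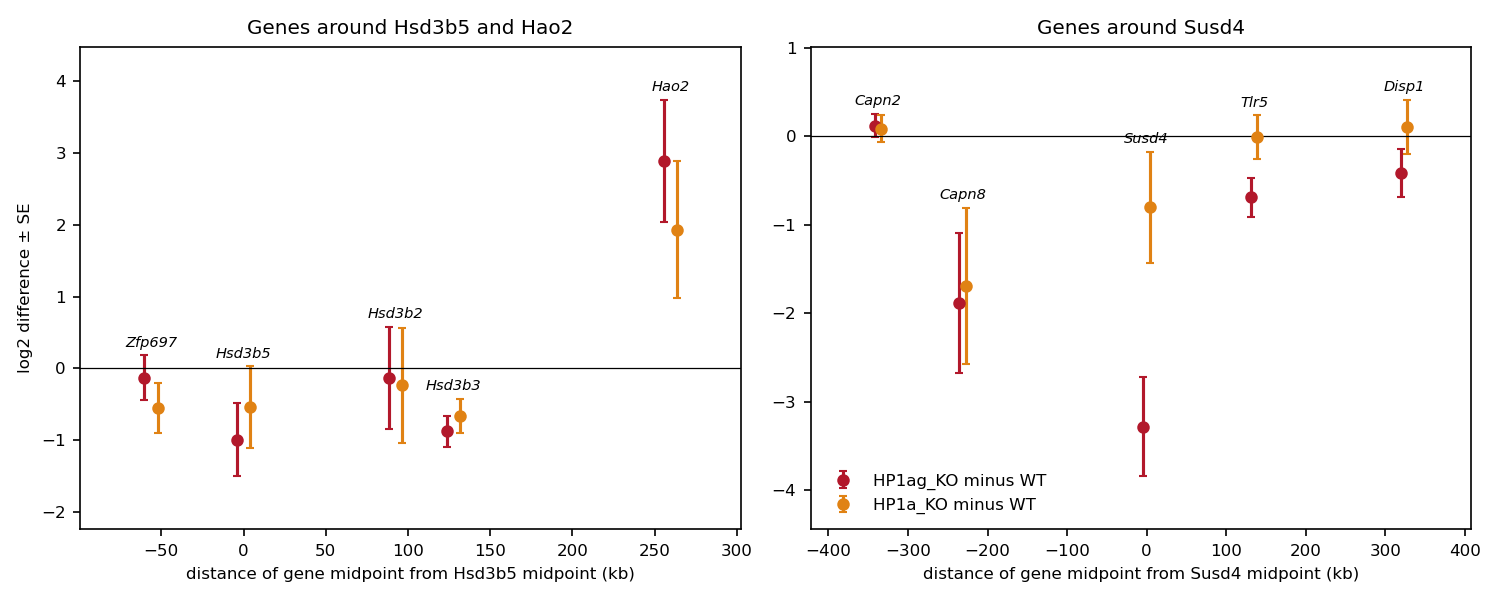
Log2 difference from WT (± SE) of the tested genes within 250 kb of Hsd3b5 (left, with Hao2) and of Susd4 (right), against the distance between gene midpoints in kb, for HP1ag_KO and HP1a_KO. On the left Hsd3b5 (-0.998) and Hsd3b3 (-0.88) lie below 0 in HP1ag_KO and Hao2 (2.89) above it; on the right Susd4 (-3.28) and Capn8 (-1.88) lie lowest.

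For each gene the 3 named genes with the most alike pattern were found by Pearson r of log2 level over the 9 livers, among 12430 genes and as a description only. Hsd3b5 was most like Hcrtr2 (r = 0.98), Mal2 and Slc22a28 (0.96 each), and Susd4 most like Msra (0.98), Mtpn and Ptges3 (0.97 each). Selenbp2 was most like Pcgf3 and Rmdn3 (0.96 each) and Lmln (0.88), and Nipal1 most like Il18bp (0.97), Rnf180 and Bicc1 (0.95 each). Elovl3 was most like Stk19 (0.95), Skp1a and Commd3 (0.94 each), and Cyp2d9 most like Cyp4v3 and Elovl3 (0.94 each) and Commd3 (0.93). Hao2 was most like Rexo4, Cyp2a4 (0.96 each) and Slc22a27 (0.95), of which Cyp2a4 and Slc22a27 are on the female-biased list. The 9 points share genotypes and libraries. With HP1ag_KO replicate 1 left out, r of these pairs was between 0.88 and 0.97, but the ranking changed for every gene. Over those 8 livers Elovl3 was most like Rnf125, Sec14l2 and Evi5, and Cyp2d9 most like Pomt1, Ppp1r16b and Erbb4 (r of 0.98, 0.96 and 0.95), none of which was named over 9 livers. Over 9 livers r of Cyp2d9 with Pomt1, Ppp1r16b and Erbb4 was 0.47, 0.33 and 0.54.

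Other measures moved with the genotypes beside these genes, and their part in the results was not tested. Of 20 acute phase genes, whose products the liver makes in inflammation, all lay higher in HP1a_KO (median log2 difference 1.32) and in HP1ab_KO (0.76), and 15 in HP1ag_KO (0.20), where 4 of 20 lay higher without HP1ag_KO replicate 1 (median -0.10). DESeq2 called Saa3, Orm1, Hp, Hpx and Itih4 higher in HP1a_KO (0.441% of all genes tested), and Saa3, Orm1, Hp and Hpx lower in HP1ag_KO than in HP1a_KO (1.61% of all genes tested). Orm1 averaged 28941 ± 14175 in HP1a_KO and 11982.5 ± 858 in WT (1.18 ± 0.26, adjusted p = 0.00226, limma 0.397). The count of 5 was 0 without HP1a_KO replicate 1, 11 without HP1a_KO replicate 2 and 8 without WT replicate 1. The count of 4 between HP1ag_KO and HP1a_KO was 2 without HP1a_KO replicate 1, 8 without HP1a_KO replicate 2 and 13 without HP1ag_KO replicate 1. The serum amyloid gene Saa2 differed by 7.11 ± 1.43 in HP1a_KO (limma adjusted p = 0.397), and Itih4 by 1.23 ± 0.32 (DESeq2 adjusted p = 0.0115, limma 0.403). In HP1ag_KO the metallothionein genes Mt1 and Mt2 differed by 1.75 ± 0.93 and 2.29 ± 1.28, and Saa4 by -0.57 ± 0.39. All 7 Kupffer cell markers lay higher in HP1ag_KO and in HP1a_KO, and 6 in HP1ab_KO. Their summed level ran from 9919 to 14571 in HP1ag_KO, was 15139 in HP1ab_KO, ran from 12995 to 15516 in HP1a_KO and from 8657 to 10758 in WT. That of 5 neutrophil markers ran from 20.2 to 112 in HP1ag_KO, was 112 in HP1ab_KO, ran from 173 to 211 in HP1a_KO and from 29.4 to 46.7 in WT, and no marker on these lists was at 0 in every liver. DESeq2 called the Kupffer cell marker Cd5l and the neutrophil marker S100a8 higher in HP1a_KO than in WT, and both calls were lost without either HP1a_KO liver, and that of Cd5l also without any 1 of the WT livers. The summed level of 7 stellate cell markers ran from 14100.4 to 15591 in HP1ag_KO, was 17097 in HP1ab_KO, ran from 16754 to 18009.7 in HP1a_KO and from 10608 to 15886 in WT. Among them DESeq2 called the collagen gene Col1a1 higher in HP1a_KO than in WT and lower in HP1ag_KO than in HP1a_KO, and neither call held without HP1a_KO replicate 1. The sum of 5 erythroid markers ran from 797 to 2636 in HP1ag_KO, was 2589 in HP1ab_KO, ran from 2125 to 2934 in HP1a_KO and from 2877 to 4728 in WT, so every HP1ag_KO liver and the HP1ab_KO liver lay below every WT liver. The 7 hepatocyte markers had a median log2 difference from WT of -0.04 in HP1ag_KO, -0.02 in HP1ab_KO and 0.10 in HP1a_KO.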

How the data were processed

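Livers of 9 mice were profiled from total RNA depleted of ribosomal RNA in strand-specific libraries, per the labels' protocols. The deposited table holds for every gene a normalised signal, in which the authors scaled read counts by a factor for each library, as the steps between its values show. With a tolerance of 0.1 read, 100% of the values were whole multiples of 1 read, so reads could be recovered. Software in the submitters' processing notes comprises DESeq2 1.0.19, HTSeq 0.5.4p3, Bowtie2 2.1.0, TopHat2 2.0.10 and CASAVA 1.8.2, with the build mm10. Annotation release and strand setting: not given in the sources used here. Overlapping genes may therefore share reads.

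The members, lists and alternatives were chosen with earlier results of these data known. The clock list, the motifs, the Arntl covariate, the likeness without HP1ag_KO replicate 1 and the DESeq2 fits that leave out a liver were added after the data were seen. limma 3.58.1 (R 4.3.3, mean trend) was fitted to log2(value + 1) for the 13845 genes averaging at least 10, using all 4 groups together (5 residual degrees of freedom, 3.13 prior). The lone HP1ab_KO liver was thereby assumed to vary like the other livers. A call is a Benjamini-Hochberg adjusted p under 0.05 over all genes tested. Fold changes of low genes come out too small on this scale. On the recovered reads, DESeq2 1.42.0 (Wald) and edgeR 4.0.16 (quasi-likelihood) were alternatives. The scripts were tested on simulated data. Each library carries its own animal number, so p-values measure the spread between animals. Technical spread is part of it and cannot be told apart.

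Named are the 7 members with their 3 most alike genes, relatives and neighbours within 250 kb that passed the filter, and Ghr, Stat5b, Bcl6, Cux2, Onecut1, Socs2, Cish and Igf1. Each list adds up to 4 genes by smallest limma p in HP1ag_KO against WT and up to 2 by HP1a_KO against WT. Relatives and neighbours not described in words were only plotted or left out. A further gene named by this rule is not reported here. Cyp2b13, A1bg, Hamp2 and the genes DESeq2 called were chosen after their values were seen. Coordinates are from GENCODE M21, in which 22257 of the 22701 genes (98.0%) were found, and upstream windows from RefSeq (GRCm38.p6). The other settings tried were pseudocounts of 0.5 and 5, no filter or a mean of 50, TMM scaling, fits to the compared groups alone, and each replicate left out. Figures and tables used matplotlib 3.10.9, pandas 2.3.3 and numpy 2.4.6 under Python 3.11.15.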

Additional observations from a re-analysis of the deposited data

How the results depend on the processing

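The count of genes called by limma, 0 in each comparison, depended on the tool and the livers. DESeq2 called 99 genes in HP1ag_KO against WT, 89 in HP1a_KO against WT, 11 in HP1ab_KO against WT and 459 in HP1ag_KO against HP1a_KO. With 1 liver left out, DESeq2 called 40 to 95, 4 to 252, 13 to 19 and 29 to 493 genes in the same order, and limma 0 to 2, 0 to 5, 0 to 2 and 0 to 5. Without WT replicate 1 DESeq2 called 40 in HP1ag_KO and 252 in HP1a_KO against WT. Without HP1a_KO replicate 1 it called 4 in HP1a_KO against WT and 29 in HP1ag_KO against HP1a_KO. For HP1a_KO against WT it called 65 without WT replicate 2, 32 without WT replicate 3 and 59 without HP1a_KO replicate 2. For HP1ag_KO against WT, leaving out HP1ag_KO replicates 1, 2 and 3 gave 89, 85 and 95, and WT replicates 2 and 3 gave 75 and 93. Between HP1ag_KO and HP1a_KO, leaving out HP1a_KO replicate 2 gave 74, and leaving out HP1ag_KO replicates 1, 2 and 3 gave 493, 147 and 202. In HP1ab_KO against WT it called 19 without WT replicate 1 and 18 without WT replicate 3. Without a filter on low values limma called 54 genes in HP1ab_KO against WT, and with a pseudocount of 5 it called 1 in HP1a_KO against WT. The cause of these shifts was not tested.

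Of 518 differences of the members under 25 settings, 24 had another sign than the main value and 1 moved by 1 SD or more. The SD was the larger within-group SD of the log2 level in the groups compared. Where livers of a group spread widely, this is a loose limit. The Elovl3 difference of HP1ag_KO from WT was not counted as moved at 1.29 under DESeq2 without WT replicate 3, against -0.87. The sign changes were in Elovl3, in Cyp2d9, and, between HP1ag_KO and HP1a_KO, in Hsd3b5 and Nipal1. Between these groups Nipal1 turned to 0.52 without HP1a_KO replicate 1, and Elovl3 to -0.46 without HP1ag_KO replicate 2. Selenbp2 moved to 4.44 between HP1ag_KO and HP1a_KO under DESeq2 without HP1a_KO replicate 1. Hsd3b5, Susd4, Selenbp2, Nipal1 and Hao2 had the same sign of their difference from WT in all settings run. The settings share livers and the members were chosen with these contrasts known, so the kept signs are no test. No paired analysis was possible because the labels give animal numbers that are not shared between groups. With 1 to 3 livers a group, and 9 reads behind the lowest Hao2 value, small differences were not detectable.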
